A study of Mus musculus and Homo sapiens with 4 samples.

Results

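The genes described here are 9 human genes of MHC class I antigen presentation, measured by RNA sequencing in VCaP and VCaP ERα cells. They are the heavy chain genes HLA-B, HLA-C and HLA-E, the light chain gene B2M, the transporter genes TAP1 and TAP2, the tapasin gene TAPBP and the immunoproteasome genes PSMB8 and PSMB9. They were picked by name: an entry of the deposited values counted as a member when its symbol field held the gene symbol, and where a symbol stood on several entries that of highest mean RPKM was taken. Each of the 9 symbols stood on 1 entry, and HLA-B and HLA-C shared theirs, so the 9 genes are 8 of the 25932 human entries.

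VCaP is a prostate cancer cell line, and the labels and methods describe VCaP ERα as that line made to overexpress oestrogen receptor alpha. The labels give passages 5 to 6 for VCaP and 4 to 5 for VCaP ERα, and both were grown in DMEM with serum. No hormone treatment is given for either library. RNA was sequenced after ribosomal RNA removal in strand-specific libraries that the labels call poly-A-, with 1 library per condition. Whether the overexpressing line is a clone is not given in the sources used here. The comparison was made to find genes downstream of ERα and the lncRNA NEAT1. Because each condition has 1 library there is no spread between replicates, and no P-value is given for any difference. The values are RPKM, that is, read numbers scaled by the length of an entry and by the mapped reads of the library, so levels of different genes can be set side by side per length. The read depth behind them is unknown.

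MHC class I molecules display peptides from inside the cell to CD8 T cells and natural killer cells. The proteasome cuts proteins to peptides, the TAP1 and TAP2 transporter moves these into the endoplasmic reticulum, and tapasin holds an empty heavy chain beside the transporter until a peptide is bound. B2M pairs with every class I heavy chain. Interferon raises most of these genes through factors such as IRF1, and in response PSMB8, PSMB9 and PSMB10 replace the constitutive subunits PSMB5, PSMB6 and PSMB7 in newly made proteasomes. Epithelial tumours often carry less class I than the tissue they arise from.

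The identity of the library labelled VCaP bears on every value below. Of 8 prostate luminal marker genes, 4 reached 1 RPKM in that library and 8 in VCaP ERα, with a summed level of 18.4 against 1729 RPKM. Single markers ranged from a listed 0 to 8.18 RPKM in VCaP and from 3.16 to 694 RPKM in VCaP ERα, and KLK2, which encodes a kallikrein of prostate epithelium, had 0.0264 and 452 RPKM. The 4 epithelial markers EPCAM, CDH1, KRT8 and KRT18 summed to 2554 in the VCaP-labelled library and 185 RPKM in VCaP ERα, of which KRT8 (1708 and 41.5 RPKM) and KRT18 (673 and 46.9 RPKM) made up most in the former, while EPCAM was higher in VCaP ERα (50.7 and 82.6 RPKM). ESR1, the overexpressed gene, had 15.7 and 209 RPKM. Leukocytes carry much class I, and 13 markers of leukocytes, endothelium and fibroblasts summed to 3.57 in the VCaP-labelled library and 3.46 RPKM in VCaP ERα. None of the 13 exceeded 0.805 RPKM in VCaP or 1.18 RPKM in VCaP ERα, and PTPRC, the pan-leukocyte marker CD45, had 0.0142 RPKM in VCaP and was listed at 0 in VCaP ERα. The prostate markers go against the label of the VCaP library, and every direction below is that of the library labelled VCaP ERα against the library labelled VCaP, whatever cells these hold. The part of this difference in the class I values was not tested, and no result can be given without that library.

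The class I genes did not all differ in the same direction. As deposited, heavy chain, transporter and tapasin levels were lower in VCaP ERα than in the library labelled VCaP, and the light chain B2M was higher. Both immunoproteasome genes were below 1 RPKM in both libraries. Differences are given as the log2 ratio of VCaP ERα to VCaP after 1 RPKM was added to each value, a scale that shrinks the differences of low entries. An entry was counted as changed past a 4-fold threshold, that is, at a log2 ratio above 2 or below -2. Of the 9 genes, 7 had a log2 ratio below 0 (6 of the 8 entries), against 41.2% of all entries and 64.0% of the 13954 entries with at least 1 RPKM in either library. HLA-E and TAPBP, 2 of the 9, were below -2, against 6.56% of all entries and 12.2% of those 13954. None of the 9 was above 2, against 2.27% and 4.21%. A minimum of 1 RPKM in either library was met by 7 of the 9 genes and not by PSMB8 and PSMB9. The median log2 ratio was -1.06 over the 9 genes and -0.96 over the 8 entries. It was 0 over all entries and -0.50 over the 13954 with at least 1 RPKM in either library. In RNA from whole cultures, fewer cells carrying a transcript and less transcript per cell cannot be told apart.

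Expressed entries were shifted as a whole, since those that reached 1 RPKM on both sides, 9754 in number, had a median log2 ratio of -0.59. Ratios relative to that median are called centred below. Across all entries 1701 were below -2 and 588 above 2 as deposited, against 868 and 1238 after centring and 997 and 1003 after quantile normalization. Relative to this shift 6 of the 9 genes (5 of the 8 entries) were lower in VCaP ERα, while B2M, PSMB8 and PSMB9 were higher. Of the 6, HLA-B and HLA-C (centred log2 ratio -0.47) and TAP2 (-0.27) lay near the shift. PSMB8 and PSMB9 were below 1 RPKM in both libraries, so their centred ratios mostly hold the shift itself. After quantile normalization 7 genes (6 of the 8 entries) were lower, PSMB9 among them. The HLA-B and HLA-C entry was then at -0.27 and TAP2 at -0.90. The share of all entries lower is not given for either scaling. The median of the 13954 entries with at least 1 RPKM in either library was 0.09 after centring and 0.04 after quantile normalization.

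**Figure D1:**
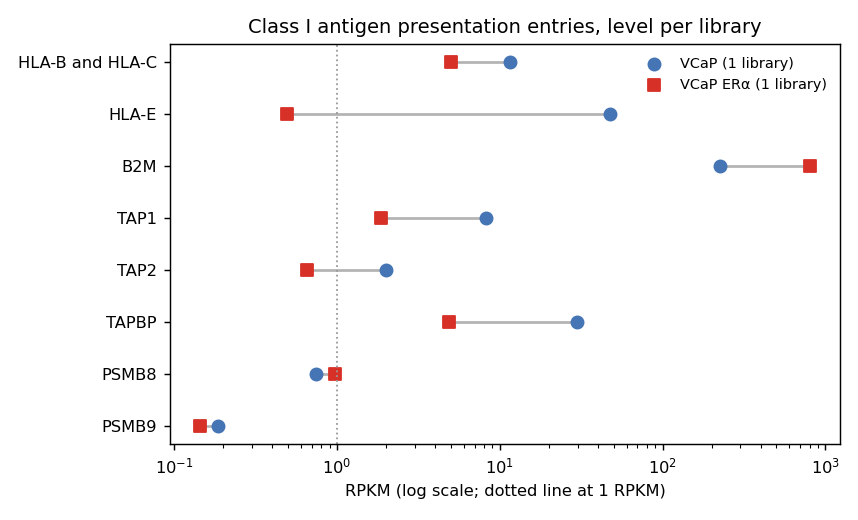
RPKM (log axis) of the 8 entries that carry the 9 genes, with 1 circle for the VCaP library and 1 square for the VCaP ERα library, joined by a line. HLA-E is at 47.5 RPKM in the VCaP-labelled library and 0.492 RPKM in VCaP ERα, B2M is the highest entry in both libraries and is higher in VCaP ERα, and PSMB8 and PSMB9 lie below 1 RPKM in both.

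HLA-E had the largest difference of the 9 genes. It encodes a class I molecule of little allelic variation that presents signal peptides of other class I chains to the NKG2A receptor of natural killer cells. Its entry (chromosome 6, 30565250 to 30569072, in the coordinates of the files) had 47.5 in the VCaP-labelled library and 0.492 RPKM in VCaP ERα. The level was thus 96.6-fold higher in the library labelled VCaP, and the log2 ratio of -5.02 was the 78th lowest of the 25932 entries. Because the VCaP ERα level was below 1 RPKM, the size of this difference is uncertain. With a pseudocount of 0.1 the log2 ratio was -6.33. HLA-E was the second highest of the 8 entries in VCaP, after B2M, and the seventh in VCaP ERα, above PSMB9 only. In VCaP it stood above 96.0% of all entries, and in VCaP ERα above 40.4%. The log2 ratio was -4.43 after centring and -4.94 after quantile normalization, so HLA-E fell past the threshold under each scaling.

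HLA-B and HLA-C encode classical heavy chains, which present peptides to CD8 T cells. The files place both on 1 entry of 88.5 kb (chromosome 6, 31344508 to 31432968), which joins 14 known-gene identifiers, so their transcripts cannot be separated. Which length scaled the RPKM of this joined entry is not known here, so its level beside other genes is uncertain. The entry had 11.5 in the VCaP-labelled library and 5.00 RPKM in VCaP ERα, for a log2 ratio of -1.06. It did not pass the threshold, and its log2 ratio moved to -0.47 after centring and to -0.27 after quantile normalization. Class I heavy chain genes share long stretches of near-identical sequence. How reads that map to several of them were counted is not given in the sources used here, so the values of all heavy chain entries are uncertain.

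HLA-F, a heavy chain gene outside the 9, had 3.46 and 0.347 RPKM, for a log2 ratio of -1.73, and it was lower under each scaling. Against HLA-E and HLA-F, the HLA-B and HLA-C entry had the smallest difference, 2.31-fold, and with 5.00 RPKM it was the highest of these 3 entries in VCaP ERα.

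B2M encodes the small invariant chain without which heavy chains do not reach the cell surface. Its entry (chromosome 15, 42790977 to 42797649) had 226 in the VCaP-labelled library and 804 RPKM in VCaP ERα, which was 3.55-fold higher than in the library labelled VCaP. It ranked 147 of 25932 entries by level in VCaP and 25 in VCaP ERα. The log2 ratio of 1.82 was just short of the threshold, as was 1.99 after quantile normalization, and it was past it at 2.41 after centring. B2M made up 69.3% of the summed RPKM of the 8 entries in VCaP and 98.3% in VCaP ERα. The other 7 entries summed to 100.1 in the VCaP-labelled library and 14.0 RPKM in VCaP ERα.

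Heavy and light chains therefore separated within each library, in a ratio that no single scaling factor per library can move. The summed heavy chain entries among the 9 genes (HLA-B with HLA-C, and HLA-E) had 59.1 in the VCaP-labelled library and 5.50 RPKM in VCaP ERα. This was 26.1% of the B2M level in VCaP and 0.684% in VCaP ERα, a difference of -5.25 on the log2 scale. B2M, the denominator, was itself 3.55-fold higher in VCaP ERα, which makes up part of this difference. HLA-E was at 21.0% and 0.0612% of B2M. The HLA-B and HLA-C entry alone went from 5.10% to 0.623%, a difference of -3.03 on the log2 scale.

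**Figure D2:**
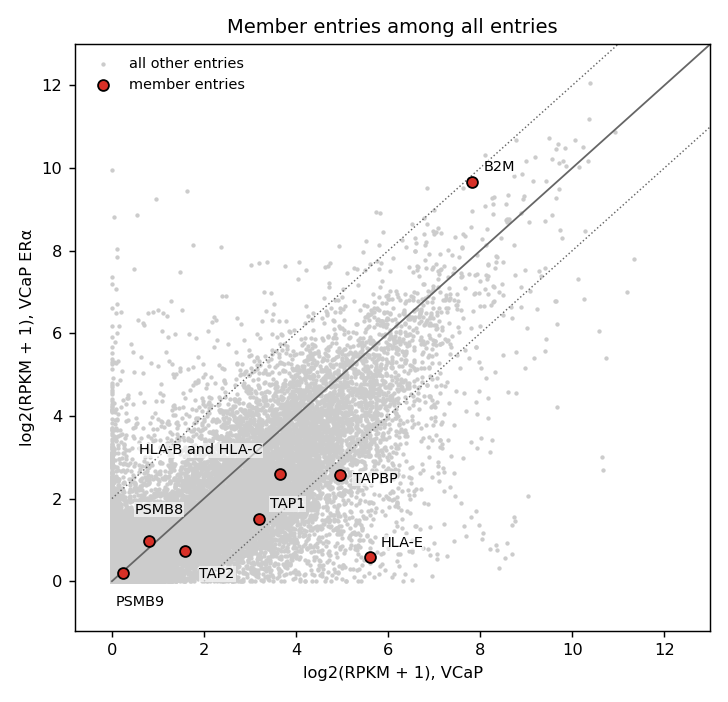
Each grey point is 1 of the other human entries, with log2(RPKM + 1) in VCaP on the x axis and in VCaP ERα on the y axis. The solid line marks equal values, the dotted lines a log2 ratio of 2 and -2, and the red points are the 8 member entries. HLA-E and TAPBP lie below the lower dotted line and B2M lies just under the upper one.

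As deposited, the transporter and its tapasin bridge were lower in VCaP ERα than in the library labelled VCaP. TAP1 (chromosome 6, 32920964 to 32929726) had 8.16 in the VCaP-labelled library and 1.85 RPKM in VCaP ERα, which was 4.42-fold lower, with a log2 ratio of -1.69. TAP2, the other half-transporter (32897588 to 32914525), had 2.00 and 0.657 RPKM, with a log2 ratio of -0.86. TAP1 thus stood above TAP2 in both libraries, 4.08-fold in VCaP and 2.81-fold in VCaP ERα. Neither passed the threshold, and after centring their log2 ratios were -1.10 and -0.27.

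TAPBP (chromosome 6, 33375450 to 33389967) had 29.9 in the VCaP-labelled library and 4.90 RPKM in VCaP ERα. The log2 ratio of -2.39 passed the threshold as deposited, but at -1.80 after centring and -1.65 after quantile normalization it did not. TAPBPL, a tapasin relative that edits peptides away from the transporter, had 6.35 and 1.34 RPKM and a log2 ratio of -1.65. The remaining endoplasmic reticulum genes were mixed. Of the 7 genes of peptide trimming and loading, 4 were lower, 3 were higher and 0 passed the threshold. Among all entries with at least 1 RPKM in either library 64.0% were lower. The median log2 ratio of the 7 genes was -0.77 as deposited and -0.18 after centring. CALR (calreticulin) had 357 and 210 RPKM, whereas CANX (calnexin, the lectin that holds free heavy chains) had 141 and 345 RPKM. The trimming peptidase ERAP1 had 3.34 and 0.821 RPKM, and its relative ERAP2 had 0.0275 and 1.08 RPKM.

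Immunoproteasome transcripts were scarce in both libraries. PSMB8 (chromosome 6, 32916472 to 32920690) had 0.739 in the VCaP-labelled library and 0.968 RPKM in VCaP ERα, with a log2 ratio of 0.18. PSMB9 (32929916 to 32935606) had 0.185 and 0.144 RPKM, with a log2 ratio of -0.05 as deposited that turned to 0.54 after centring and stayed below 0, at -0.38, after quantile normalization. At these levels no difference between the libraries can be read for either gene.

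The constitutive subunits that they replace were abundant. PSMB5 had 272 in the VCaP-labelled library and 99.5 RPKM in VCaP ERα, PSMB6 had 128 and 55.5 RPKM, and PSMB7 had 127 and 72.0 RPKM. PSMB8 was thus at 0.272% of PSMB5 in VCaP and at 0.973% in VCaP ERα, and PSMB9 at 0.145% and 0.259% of PSMB6. PSMB10, the third inducible subunit, was higher than these at 4.69 and 1.54 RPKM, which was 3.70% and 2.14% of PSMB7. The inducible subunit thus stayed below 4% of its constitutive counterpart in each of the 3 pairs and both libraries. No direction is read from the PSMB8 and PSMB9 ratios, whose numerators were below 1 RPKM and whose denominators were lower in VCaP ERα.

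PSME1 and PSME2 encode the interferon-inducible PA28 cap of the proteasome. PSME1 had 68.6 in the VCaP-labelled library and 19.7 RPKM in VCaP ERα, with a log2 ratio of -1.75. PSME2 had 19.0 and 3.68 RPKM and a log2 ratio of -2.09, past the threshold as deposited and not after centring (-1.50) or quantile normalization (-1.36). The 13 further proteasome genes, which encode the rest of the 20S core with the cap subunit PSME3 and the assembly factor POMP, had a median log2 ratio of -0.47 as deposited and 0.12 after centring. As deposited, 9 were lower and 4 higher, against 64.0% lower among all entries with at least 1 RPKM in either library. Of the 13, 0 passed the threshold, and the most abundant were PSMA7 (433 and 169 RPKM) and PSMB4 (157 and 97.6 RPKM).

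**Figure D3:**
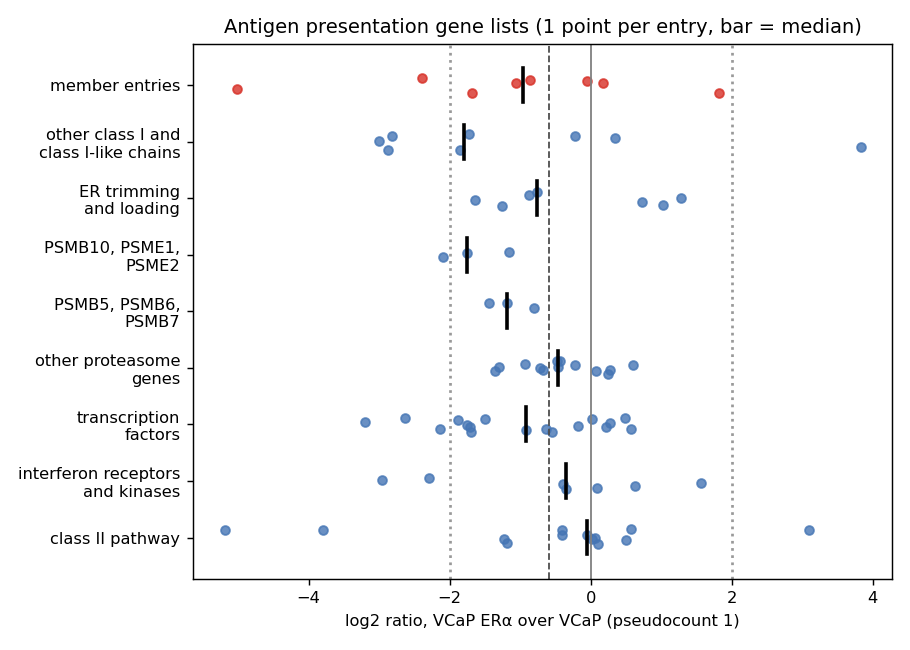
Log2 ratios (x axis, VCaP ERα over VCaP) of the member entries in red and of 8 lists of related genes in blue, with 1 point per entry and a black bar at each median. The solid line marks 0, the dashed line the median of expressed entries at -0.59 and the dotted lines the threshold. The medians of the other class I chains (-1.79) and of PSMB10, PSME1 and PSME2 (-1.75) lie below that of the members (-0.96).

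Of the 17 transcriptional regulators of class I genes, 12 were lower and 5 higher as deposited, a share of lower genes near the 64.0% of entries with at least 1 RPKM in either library. Their median log2 ratio was -0.92 as deposited and -0.33 after centring. Of these genes, the interferon-activated STAT2 (16.6 and 3.01 RPKM, log2 ratio -2.13) and its partner IRF9 (23.0 and 1.61 RPKM, -3.20) passed the threshold as deposited. After centring and after quantile normalization IRF9 was past it (-2.61 and -2.66), while STAT2 was not (-1.54 and -1.41). RELA, a subunit of NF-κB, had 30.9 and 15.9 RPKM, among the highest levels of the list. RFX5, of the complex that binds the X box of class I promoters, had 35.5 and 10.3 RPKM. NLRC5, the class I transactivator, had 0.0681 in the VCaP-labelled library and 0.287 RPKM in VCaP ERα, so it was near 0 in both. IRF1 had 6.50 and 1.29 RPKM.

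**Figure D4:**
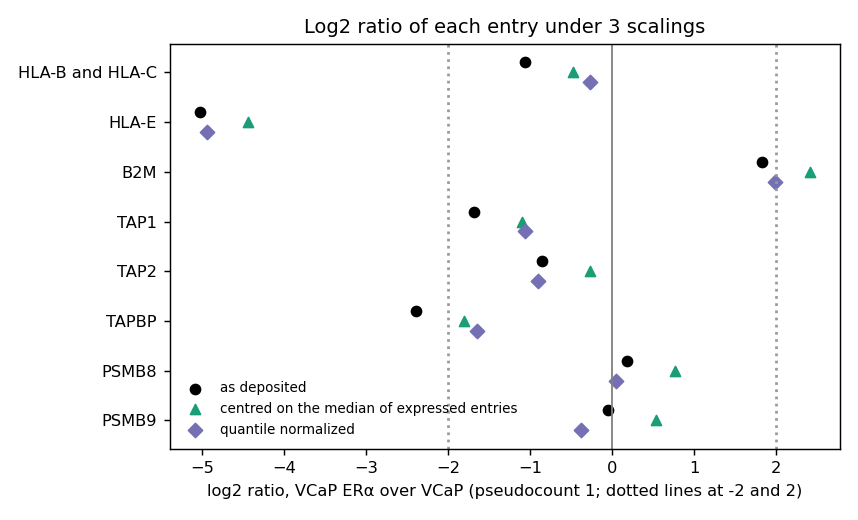
Log2 ratio (x axis, VCaP ERα over VCaP) of the 8 entries as deposited (circles), relative to the median of expressed entries (triangles) and after quantile normalization (diamonds), with dotted lines at -2 and 2. HLA-E stays below -2 under all 3, TAPBP passes only as deposited, B2M passes only after centring, and PSMB9 changes sign.

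The position of the genes was not used to choose them. Of the 8 entries, 7 lie on chromosome 6 in the MHC, within 2.82 Mb from 30565250 to 33389967, and B2M lies on chromosome 15. TAP2, PSMB8, TAP1 and PSMB9 stand side by side in 38.0 kb. PSMB8 and TAP1 are 273 bases apart, and 189 bases separate TAP1 from PSMB9, with which it shares a promoter region. No other entry overlapped any of the 8. In this block the log2 ratio was -1.69 for TAP1 and -0.05 for PSMB9 as deposited, and -1.10 and 0.54 after centring. PSMB9 was below 1 RPKM in both libraries, where adding 1 RPKM holds its ratio near 0. No contrast between these neighbours is therefore read.

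Apart from the members, 134 entries lie in this interval and 83 of them had at least 1 RPKM in either library. Of the 83, 64 were lower (77.1%, against 64.0% of all entries at that minimum). Past the threshold, 11 were below -2 (13.3%, against 12.2%) and 3 above 2 (3.61%, against 4.21%), shares near those of all entries. Their median log2 ratio was -0.91 (-0.32 after centring), against -0.50 for all 13954 entries at that minimum. The lowest were HLA-DQB1 (56.3 and 0.567 RPKM, log2 ratio -5.19), IER3 (23.1 and 0.314 RPKM, -4.20) and the entry of HLA-DRB5 with HLA-DRB1 (31.5 and 1.33 RPKM, -3.80). The highest were SLC44A4, a choline transporter-like gene (0.0553 and 9.72 RPKM, 3.34), HLA-DMB (0.0945 and 8.35 RPKM, 3.10) and the transcript AK057104 (2.64 and 27.1 RPKM, 2.95). Lower and higher entries thus lay within the same stretch, and whether gene copy number differs between the libraries was not examined.

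**Figure D5:**
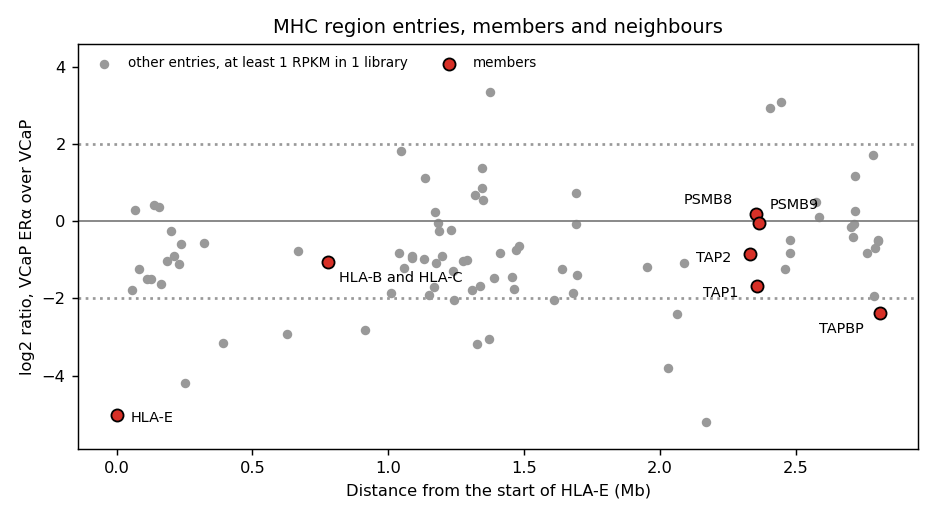
Log2 ratio (y axis, VCaP ERα over VCaP) of entries of the MHC region against the distance of their start from that of HLA-E in Mb (x axis), for the 7 member entries in red and the 83 other entries with at least 1 RPKM in either library in grey. Dotted lines mark -2 and 2. Entries above and below 0 are interspersed along the region, and HLA-E at its left end and HLA-DQB1 have the lowest values.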

How the data were processed

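The authors deposited RPKM values of 1 library each of VCaP and VCaP ERα cells. The submitters' processing notes name CASAVA 1.8 and the build hg18 (beside mm10 for mouse libraries, which were not used here). The counter, its use of strand and the handling of reads with several matches are not given in the sources used here, and coordinates are those of the files. Because RPKM gives no read number, no counting interval or detection floor was computed.

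From these values log2 ratios with a pseudocount of 1 were computed over all 25932 entries, and no test was made. A change was called past 2 or -2. Tried as alternatives were centring on the median of the 9754 entries that reached 1 RPKM in both, quantile normalization, a pseudocount of 0.1, the filter at 1 RPKM in either library and the sum of a symbol's entries; counting each entry once and the separate heavy chain ratios were chosen after seeing the data. Named were the 9 genes, ESR1, for each pathway list the highest 2 by mean level and those past the threshold (marker lists are given by their sums), all genes of the replaced and inducible proteasome lists, the 3 lowest and 3 highest MHC neighbours, and the 3 entries nearest the members' median point. NLRC5, IRF1, RFX5, HLA-F, TAPBPL, ERAP1, ERAP2 and PTPRC were added after their values were seen. The members and lists were chosen with earlier results of these data known. The functions for the log2 ratio and for quantile normalization were checked on the VCaP values with known changes put on them. The other steps were not checked in this way. A human sequence was not used here. Scripts ran under Python 3.11.15 with pandas 2.3.3 and numpy 2.4.6, and figures were drawn with matplotlib 3.10.9. Some genes that the naming rule covers are not reported here.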

Additional observations from a re-analysis of the deposited data

How the results depend on the processing

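A log2 value was taken as unmoved within 0.58 and a count within 1.5 times, since no replicate spread exists. The median log2 ratio of the 9 genes, -1.06, was -0.47 after centring and -0.38 after quantile normalization. Of the 9 genes, 2 were past the threshold as deposited (HLA-E and TAPBP), 2 after centring (HLA-E and B2M), 1 after quantile normalization (HLA-E) and 3 with a pseudocount of 0.1, which added TAP1 (-2.09). The median of the MHC neighbours was -0.11 over all 134 and -0.91 over the 83 of at least 1 RPKM. After centring it was 0.48 over all 134 and -0.32 over the 83. The difference of the heavy chain to B2M ratio, -5.25, was -3.03 for the HLA-B and HLA-C entry alone and -8.42 for HLA-E alone. The size of the latter is uncertain, since HLA-E was below 1 RPKM in VCaP ERα. With the pseudocount of 0.1, 2958 of all entries were below -2 and 4238 above 2. No called gene named here changed sign under any alternative run. For a called gene only quantile normalization and the sum of a symbol's entries could have changed the sign. No paired analysis was possible because each condition has 1 library. Leaving out a replicate was not possible for the same reason. Depth, and with it the precision of values near 0 such as PSMB9, is unknown.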

Other observations

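Class II antigen presentation genes, which are normally restricted to immune cells or induced by interferon gamma, were compared as a neighbouring pathway. Of 13 genes, 7 were lower and 6 higher in VCaP ERα than in the library labelled VCaP, with a median log2 ratio of -0.05 as deposited, 0.54 after centring and -0.30 after quantile normalization. Of all entries 41.2% were lower, and of those with at least 1 RPKM in either library 64.0%. HLA-DQB1 and the entry of HLA-DRB1 were below -2 and HLA-DMB was above 2. At that minimum 12.2% of entries were below -2 and 4.21% above 2. These values were uneven within the library labelled VCaP, where HLA-DQB1 had 56.3 RPKM, its partner chain HLA-DQA1 0.0451 RPKM, HLA-DRA 1.71 RPKM and the invariant chain CD74 1.63 RPKM. CIITA, the class II transactivator, was listed at 0 in VCaP and had 0.492 RPKM in VCaP ERα. The genes of this paragraph outside the naming rule were named after their values were seen.

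Among class I-like chains, MICA (18.1 and 1.70 RPKM, log2 ratio -2.82) and MR1 (10.8 and 0.618 RPKM, -2.87) fell past the threshold under each scaling. FCGRT, the neonatal Fc receptor chain, which pairs with B2M, went the other way, from 0.0480 to 13.9 RPKM. Its log2 ratio was 3.83, or 4.42 when both entries of its symbol were summed. Over the 8 entries of this list 6 were lower and 2 higher. Among all entries with at least 1 RPKM in either library 64.0% were lower, 12.2% below -2 and 4.21% above 2.

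Of 7 interferon receptors and kinases, 4 were lower and 3 higher. Of all entries with at least 1 RPKM in either library, 64.0% were lower and 12.2% were below -2. JAK1 (37.0 and 3.86 RPKM, log2 ratio -2.97) and TYK2 (10.5 and 1.33 RPKM, -2.30) were below -2, and after centring JAK1 (-2.38) was while TYK2 (-1.71) was not. IFNGR1 had 30.5 and 23.6 RPKM, and IFNGR2 had 12.0 and 37.6 RPKM.

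Over the 2 libraries, the entries nearest to the members' median point on the log2(RPKM + 1) scale were SRCAP, MON1B and C19orf52, at distances of 0.0073, 0.027 and 0.034. With 2 libraries this gives only a like pair of levels.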
